A study of Mus musculus with 28 samples.

Results

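The genes described here encode the nuclear subunits of respiratory complex III, cytochrome c oxidase (complex IV) and ATP synthase, together with cytochrome c. Members were taken by symbol: those starting with Uqcr, Atp5, Cox4, Cox5, Cox6, Cox7 or Cox8, plus Cyc1 and Cycs. A probe had to exceed a normalized intensity of 24 in at least 7 of 28 samples, and the brightest probe stood for each gene. This gave 39 of the 8389 genes kept: 7 of complex III, 1 for cytochrome c, 16 of complex IV and 15 of ATP synthase. Of the 44 symbols that matched, 5 were not kept. Atp5k, Cox7b2, Cox8c and Uqcrfs1 exceeded the limit in 0 samples and Uqcrq in 1, with mean intensities of 4.90, -7.27, -8.15, -1.97 and 7.84. A low value of a probe does not show that its gene is not expressed. Just inside the limit were Cox6b2, over it in 8 samples with a mean of 18.9, and Cox4i2, over it in 18 with a mean of 32.5. Cox7a2l was taken by its symbol but encodes an assembly factor of respiratory supercomplexes rather than a subunit.

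The study asked how LKB1, the kinase encoded by Stk11 that activates AMPK and its relatives, bears on gene expression in contracting muscle. RNA came from the calf (gastrocnemius, plantaris and soleus together) in female mice of the FVB strain, aged 4 months, and 1 Illumina bead array was hybridised per sample. The 4 groups of 7 were wild-type mice at rest, wild-type mice after contraction, mice with a skeletal-muscle-specific LKB1 knockout at rest, and such knockout mice after contraction. Contraction lasted 15 min, was driven in situ through the sciatic nerve, and the muscle was taken directly afterwards. The Cre driver and the deleted exons are not given in the sources used here. All members were read in RNA of the whole muscle complex, so fewer cells of a type and less RNA per cell cannot be told apart.

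Complex III passes electrons from ubiquinol to cytochrome c, complex IV passes them on to oxygen, and both pump protons across the inner mitochondrial membrane. ATP synthase lets the protons back through its membrane ring of c subunits, and the turning ring drives ATP formation in the F1 head. Several subunits exist as isoforms from separate genes: Cox6a2, Cox7a1 and Cox8b are the heart and muscle forms of complex IV subunits, Cox6a1, Cox7a2 and Cox8a their forms in other tissues. The genes Atp5g1, Atp5g2 and Atp5g3 encode the same mature c subunit behind different import sequences.

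The promoters shown here belong to the called genes with the largest differences at rest, Atp5h and Cox8b, and to the c-ring genes Atp5g1 and Atp5g3, which differed in their response. Each is the 150 bases before the annotated start on the coding strand, from RefSeq with build GRCm38.p6, the reference of another strain than FVB. Capitals mark matches to 4 motifs of factors known to act on nuclear genes of respiration, searched on both strands. They were GCGCA and GCGC with any base between them for NRF1, CCGGAAG for GABPA and other ETS factors, AAGGTCA for ERR and other nuclear receptors, and AAGATGGC for YY1.
Atp5h, chr11:115419920-115420069, minus strand: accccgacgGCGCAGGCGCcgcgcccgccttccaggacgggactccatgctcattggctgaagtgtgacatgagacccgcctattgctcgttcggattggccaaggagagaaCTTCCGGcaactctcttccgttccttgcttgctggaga
Cox8b, chr7:140900447-140900596, minus strand: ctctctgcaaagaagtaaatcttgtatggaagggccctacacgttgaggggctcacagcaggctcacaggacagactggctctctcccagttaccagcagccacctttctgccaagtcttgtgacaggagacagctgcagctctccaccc
Atp5g1, chr11:96075632-96075781, minus strand: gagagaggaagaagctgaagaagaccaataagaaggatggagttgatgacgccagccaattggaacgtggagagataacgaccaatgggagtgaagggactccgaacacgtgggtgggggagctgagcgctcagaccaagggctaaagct
Atp5g3, chr2:73911327-73911476, minus strand: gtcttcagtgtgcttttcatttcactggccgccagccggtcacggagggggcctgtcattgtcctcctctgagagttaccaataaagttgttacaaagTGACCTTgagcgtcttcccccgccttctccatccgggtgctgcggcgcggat
Counted from the start, with -1 the base before it, the capitals in Atp5h are an NRF1 motif from -141 to -132 and, on the opposite strand, a CCGGAAG motif from -38 to -32. In Atp5g3 they are an AAGGTCA motif on the opposite strand from -52 to -46. The stretches of Cox8b and Atp5g1 hold none of the 4 motifs, which says only that these letters are not in this window.

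Promoters from 250 bases before to 50 after the start were in the table for 30 of the 39 members. The NRF1 motif was in 7 of the 30 (23.3%) and in 5.19% of the promoters of 27025 genes. Those genes were not limited to the ones kept on these arrays, so the 2 sets are unlike. CCGGAAG was in 9 (30%) against 9.93%, AAGGTCA in 3 (10%) against 5.38%, and AAGATGGC in 3 (10%) against 3.19%. All 8 members that the comparisons below called had a promoter in the table: 2 held the NRF1 motif, 4 CCGGAAG, 1 AAGGTCA and 0 AAGATGGC. Among the 22 other members with a promoter the numbers were 5, 5, 2 and 3. A match is a description of the sequence and no evidence of binding.

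As a check of the knockout, Stk11 was lower in every knockout sample than in any wild-type sample. Its log2 intensity ran from 10.10 to 10.64 in resting wild type and from 8.56 to 9.32 in resting knockout, and from 10.10 to 10.53 and 8.69 to 9.30 after contraction (limma adjusted p = 1.08e-07 and 1.68e-08). All 7 skeletal muscle markers were kept. The mean log2 level of 10 slow-fibre genes lay over 1 below the median in 3 samples, number 4 of each group but resting wild type. Lymphocyte markers lay over 1 above the median in 6 samples: numbers 4 and 5 of resting wild type, 7 of contracted wild type, 2 and 4 of resting knockout and 5 of contracted knockout. Resting knockout sample 1 (mean log2 7.20) and contracted knockout samples 1 (7.00) and 2 (7.08) lay just under that limit. The remaining samples were at 6.30 or below. Whether samples of equal number come from 1 mouse is not in the labels, so p-values reflect only the spread from sample to sample, part of which may be technical.

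In knockout muscle several members were called lower, and contraction changed none of them by the test used. The called members stood at 65.5% to 85.1% of wild type in the fits. Percents of wild type, here and below, come from log2 differences of values with an offset added. The offset shrinks the differences of dim probes, so these percents are not ratios of the normalized intensities. At rest 5 of 39 members were called lower and 0 higher at an adjusted p under 0.05 (12.8%), where 1.93% of all genes were called lower and 1.82% higher, 3.75% in all. The 5 were Uqcrc1 and Uqcr11 of complex III, Cox8b of complex IV, and Atp5g1 and Atp5h of ATP synthase. After contraction 8 of 39 were called lower and 0 higher (20.5%), where 4.33% of all genes were called lower and 4.54% higher, 8.87% in all. The 8 were these 5 and Cox6b1, Cox7a1 and Atp5e. The tests were limma's, adjusted over 8389 genes within a comparison.

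**Figure D1:**
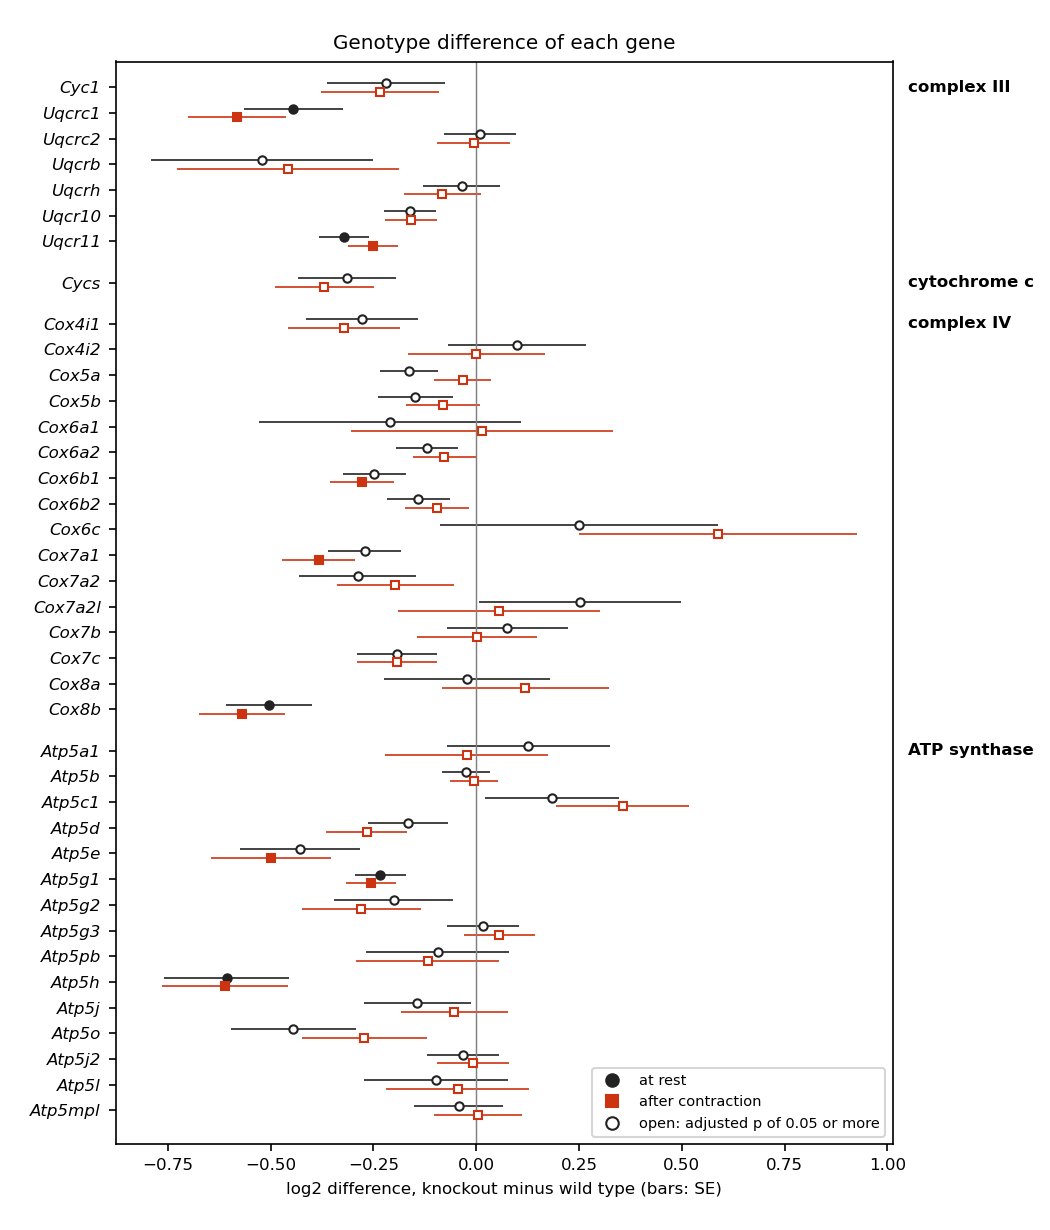
Log2 difference between knockout and wild type for each of the 39 genes (x axis, log2 units, bars show the standard error) at rest (black circles) and after contraction (red squares), ordered by complex. Filled symbols passed the test: 5 at rest and 8 after contraction, all to the left of 0.

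The differences of the other members lay mostly on the same side. At rest 31 of 39 members had a negative difference, with a median of -0.16 on the log2 scale, where 51.3% of all genes were negative and their median was -0.01. After contraction 30 of 39 were negative with a median of -0.09, where 52.4% of all genes were negative and their median was -0.01. The range of the members was from -0.61 to 0.25 at rest and from -0.61 to 0.59 after contraction. The smallest standard error was 0.06, the median 0.12 and the largest 0.34, so the same difference passed the test in one gene and missed it in another. Without adjustment 12 of 39 members at rest and 13 of 39 after contraction had a limma p under 0.05, where 21.8% and 26.3% of all genes did. All 12 at rest and 12 of the 13 after contraction were lower in knockout, and Atp5c1 was higher in contracted knockout. The knockout groups were compared with different wild-type groups, so the 2 comparisons share no sample, though knockout samples of equal number deviated together.

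Complex III had 2 of 7 members called lower in each state, the same 2, with a median difference over the 7 of -0.22 at rest and -0.23 after contraction. Uqcrc1 encodes core protein 1, which faces the matrix. Its log2 intensity at rest ran from 13.23 to 13.89 (median 13.76) in wild type and from 12.90 to 13.66 (median 13.16) in knockout. After contraction it ran from 13.27 to 13.95 (median 13.75) and from 12.95 to 13.31 (median 13.16). The groups overlapped in both states, after contraction only between 13.27 and 13.31. Uqcrc1 fell to 73.5% of wild type at rest, by 0.44 in log2 units (SE 0.12, limma adjusted p = 0.0352). In the contracted state it fell to 66.8%, by 0.58 (SE 0.12, adjusted p = 0.00372).

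Uqcr11, a small accessory subunit, had among the smallest spreads of all members. At rest it ran from 13.97 to 14.19 (median 14.11) in wild type and from 13.64 to 14.05 (median 13.76) in knockout. After contraction it ran from 14.03 to 14.11 (median 14.06) and from 13.75 to 13.86 (median 13.82), so that every knockout sample lay below every wild-type sample. It fell to 80.0% of wild type at rest, by 0.32 (SE 0.06, limma adjusted p = 0.00439), and to 84.0% in the contracted state, by 0.25 (SE 0.06, adjusted p = 0.012).

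The remaining members of complex III were not called in either state. Uqcrc2, core protein 2 and partner of the Uqcrc1 product, differed by 0.01 at rest (95% interval from -0.17 to 0.19) and by -0.01 after contraction (from -0.19 to 0.17). Uqcr10 differed by -0.16 in both states (limma adjusted p = 0.142 and 0.106), and its second probe by -0.19 in both. Cyc1, the cytochrome c1 subunit, was at -0.22 and -0.23, and the hinge protein gene Uqcrh at -0.04 and -0.08. Uqcrb had the largest negative value of these, -0.52 at rest and -0.46 after contraction, with a standard error of 0.27. Cycs, the soluble carrier between complexes III and IV, was at -0.31 at rest (SE 0.12, adjusted p = 0.13) and -0.37 after contraction (SE 0.12, adjusted p = 0.0511).

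Complex IV had 1 of 16 members called lower at rest and 3 after contraction, with medians of -0.16 and -0.08. Cox8b, the heart and muscle form of subunit 8, ran at rest from 14.55 to 14.96 (median 14.78) in wild type and from 13.96 to 14.60 (median 14.28) in knockout. After contraction it ran from 14.60 to 14.94 (median 14.67) and from 14.04 to 14.61 (median 14.12). A single contracted knockout sample, number 7 at 14.61, reached the wild-type range there, and the other 6 lay at 14.19 or below. Cox8b fell to 70.5% of wild type at rest, by 0.50 (SE 0.10, limma adjusted p = 0.00796), and to 67.4% in the contracted state, by 0.57 (SE 0.10, adjusted p = 0.00219).

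Cox7a1, the heart and muscle form of subunit 7a, ran from 13.86 to 14.45 (median 14.09) in resting wild type and from 13.59 to 14.19 (median 13.83) in resting knockout. After contraction it ran from 14.01 to 14.34 (median 14.06) and from 13.60 to 13.82 (median 13.77), without overlap. Its difference was -0.27 at rest (SE 0.09, limma adjusted p = 0.0809). In contracted muscle it was lower in knockout by 0.38 (SE 0.09, adjusted p = 0.00839), at 76.7% of wild type. Cox6b1 joins the monomers of complex IV. It ran from 14.66 to 14.94 (median 14.85) and from 14.37 to 14.70 (median 14.57) at rest, and from 14.74 to 14.89 (median 14.78) and from 14.25 to 14.71 (median 14.55) after contraction, again without overlap in the contracted state. Its difference at rest was -0.25 (SE 0.08, limma adjusted p = 0.0653). In contracted muscle it was lower in knockout by 0.28 (SE 0.08, adjusted p = 0.0226), at 82.5% of wild type. A second probe of Cox6b1 differed by -0.27 at rest and -0.23 after contraction (SE 0.09).

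The third heart and muscle form was not called. Cox6a2 ran from 14.82 to 15.23 (median 15.02) in resting wild type and from 14.72 to 15.07 (median 14.86) in resting knockout. It differed by -0.12 at rest (95% interval from -0.28 to 0.04) and -0.08 after contraction (from -0.23 to 0.08), intervals that leave out the falls of Cox8b. Cox4i1, the common form of the regulatory subunit 4, was at -0.28 and -0.32 with a standard error of 0.14 and was not called. Cox5a, Cox5b and Cox7c lay at -0.16, -0.15 and -0.19 at rest and at -0.03, -0.08 and -0.19 after contraction. Of the dimmest members, Cox4i2, the lung form, was at 0.10 and 0.00, Cox6b2, the testis form, at -0.14 and -0.09, and Cox7b at 0.08 and 0.00. Cox7a2 was at -0.29 and -0.20, and the assembly factor gene Cox7a2l at 0.25 and 0.06.

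ATP synthase had 2 of 15 members called lower at rest and 3 after contraction, with medians of -0.10 and -0.05. Atp5h encodes subunit d of the peripheral stalk, which holds the F1 head still. At rest it ran from 10.90 to 11.77 (median 11.45) in wild type and from 10.22 to 11.19 (median 10.82) in knockout. After contraction it ran from 11.04 to 11.58 (median 11.32) and from 10.42 to 11.15 (median 10.60), so the groups overlapped in both states. Atp5h fell by 0.61 in each state (SE 0.15, limma adjusted p = 0.0245 at rest and 0.0132 after contraction), to 65.7% and 65.5% of wild type. Atp5e, the epsilon subunit of the central stalk, was read by a dimmer probe. It ran from 7.43 to 8.06 (median 7.75) and from 6.82 to 7.82 (median 7.45) at rest, and from 7.45 to 8.08 (median 7.80) and from 6.94 to 7.82 (median 7.36) after contraction. Its difference at rest was -0.43 (SE 0.15, adjusted p = 0.0931), and it fell by 0.50 after contraction (SE 0.15, adjusted p = 0.0318), to 70.8% of wild type in the fit. The mean normalized intensity of Atp5e after contraction was 149 in wild type and 84.6 in knockout, a larger fall than the fitted percent gives.

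**Figure D2:**
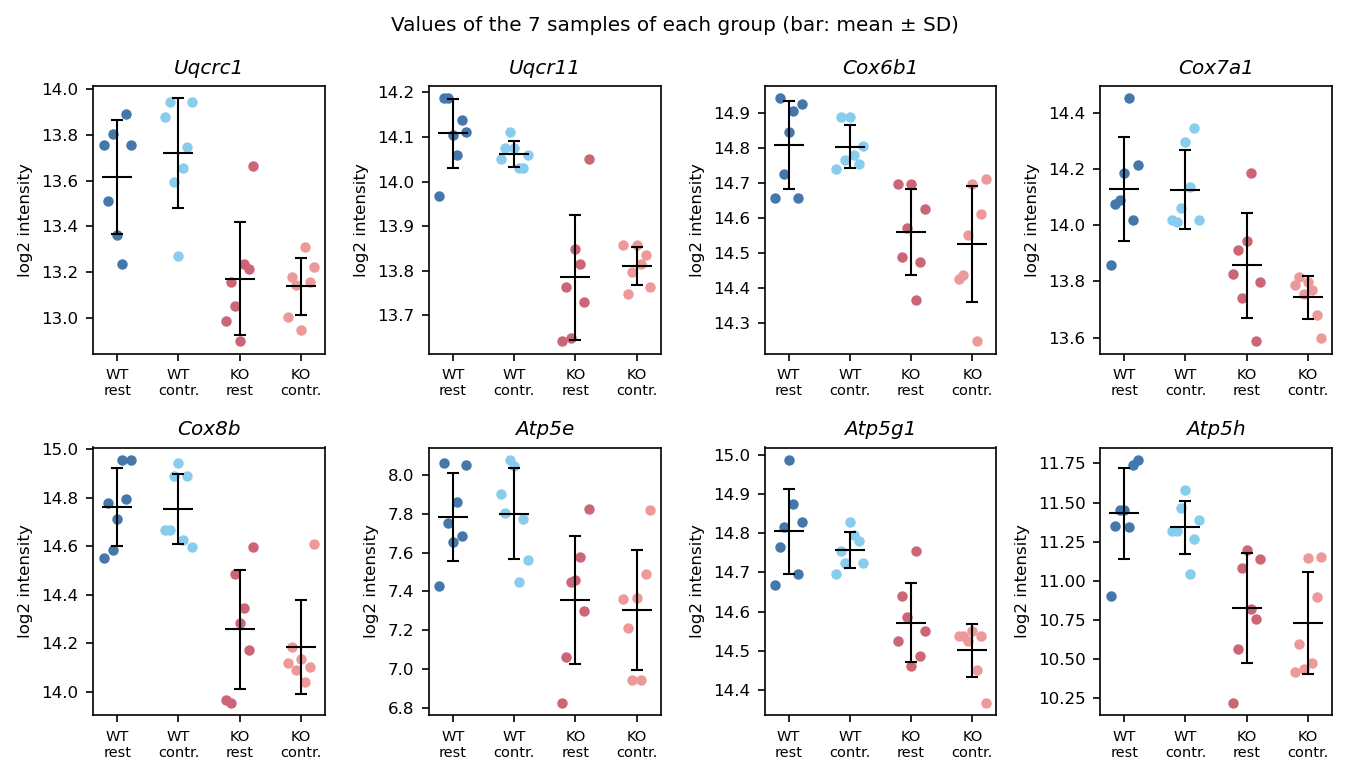
Log2 intensity (y axis) of the 8 genes called in at least 1 state, for the 7 samples of each group in the order of their numbers, with the mean and SD. In the contracted state the wild-type and knockout points of Uqcr11, Cox6b1, Cox7a1 and Atp5g1 do not overlap.

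The catalytic F1 subunits were not called in either state. Atp5b, the beta subunit that forms ATP, ran from 15.43 to 15.62 in resting wild type and from 15.39 to 15.62 in resting knockout, and differed by -0.03 at rest and -0.01 after contraction. It kept ranks 1 to 8 among all probes in every sample, which bounds the difference it can show. Atp5a1, its alpha partner, was at 0.13 and -0.02. Atp5d, the delta subunit, was at -0.16 at rest and -0.27 after contraction (limma adjusted p = 0.0806). In the peripheral stalk Atp5o was at -0.44 (SE 0.15, adjusted p = 0.0931) and -0.27, Atp5pb, subunit b, at -0.09 and -0.12, and Atp5j at -0.14 and -0.05. The membrane subunit genes Atp5j2, Atp5l and Atp5mpl lay between -0.10 and 0.00 in both states.

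At rest 0 members had every knockout sample below every wild-type sample, where 0.453% of all genes did, and after contraction 4 members did, where 0.668% of all genes did. For 0 members was this so in both states (0.131% of all genes), or for all 14 knockout against all 14 wild-type samples (0.0715%). Over both states together, in a fit added after the single states had been seen, 9 members were called lower, where 8.05% of all genes were: the 8 above and Cycs, which fell by 0.34 (limma adjusted p = 0.0208). That fit joined rest and contraction of equal number within a genotype with an estimated correlation of 0.413.

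Part of the calls at rest lay near the threshold. Leaving out 1 array at a time gave 2 to 7 members at rest, where 1.3% to 8.06% of all genes were called. The count was 2 without resting wild-type sample 7 or resting knockout sample 1 or 6, and 3 without resting wild-type sample 3 or 6 or resting knockout sample 2 or 4. Uqcr11 and Cox8b passed in all 28 of these fits. Uqcrc1 missed the threshold without resting wild-type sample 1, 2, 3, 6 or 7 or resting knockout sample 1, 2, 3, 4 or 6 (limma adjusted p up to 0.0937). Atp5g1 missed it without resting wild-type sample 3, 4 or 7 or resting knockout sample 1, 4 or 6 (up to 0.0798), and Atp5h without resting wild-type sample 6 or 7 or resting knockout sample 1, 2 or 6 (up to 0.0795). After contraction the count stayed between 6 and 11, where 4.88% to 20.3% of all genes were called. Only Atp5e, without contracted wild-type sample 1, 2, 3 or 4 or contracted knockout sample 1, 2, 3 or 5 (up to 0.0804), and Cox6b1, without contracted wild-type sample 2 or contracted knockout sample 1 or 5 (up to 0.0573), missed the threshold.

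The c ring held the 1 isoform pair whose copies differed in their response by the test. Atp5g1 ran at rest from 14.67 to 14.99 (median 14.82) in wild type and from 14.46 to 14.75 (median 14.55) in knockout, and after contraction from 14.70 to 14.83 (median 14.75) and from 14.37 to 14.55 (median 14.54). It fell to 85.1% of wild type at rest, by 0.23 (SE 0.06, limma adjusted p = 0.0316), and to 83.7% in the contracted state, by 0.26 (SE 0.06, adjusted p = 0.0107). Atp5g3 ran from 14.78 to 15.16 (median 14.96) and from 14.70 to 15.20 (median 14.97) at rest, and from 14.68 to 15.09 (median 14.94) and from 14.66 to 15.13 (median 15.00) after contraction. Its differences were 0.02 (95% interval from -0.16 to 0.20) and 0.06 (from -0.12 to 0.23). The wild-type and knockout samples of Atp5g3 covered the same range in both states, while those of Atp5g1 did not overlap after contraction. Atp5g2 was at -0.20 and -0.28 with a standard error of 0.14 and was not called.

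The difference in response was tested on the log2 gap between the copies within each sample. The size of a gap depends on the probes and has no meaning of its own, so only its change between genotypes is read. The gap of Atp5g1 to Atp5g3 ran from -0.22 to -0.08 in resting wild type and from -0.57 to -0.15 in resting knockout, and from -0.32 to 0.02 and from -0.59 to -0.29 after contraction. It was lower in knockout by a difference of -0.25 at rest (SE 0.06, exact two-sided permutation p = 0.00291, 0.0204 adjusted over 14 tests) and of -0.31 after contraction (SE 0.06, p = 0.00117, adjusted 0.0163). Both passed in each fit that left out 1 sample, with differences from -0.29 to -0.22 and from -0.34 to -0.28. The 14 tests were 7 pairs in 2 states, and the smallest p that 7 against 7 samples allow is 0.000583.

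**Figure D3:**
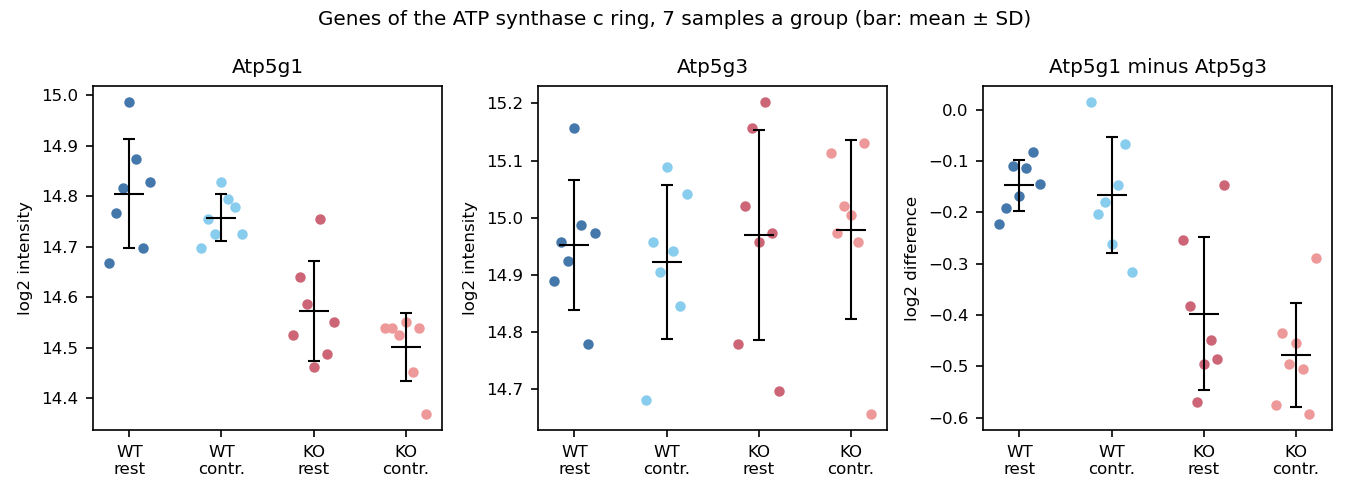
Log2 intensity of Atp5g1 and Atp5g3 and the gap between them (y axes, log2) in the 7 samples of each group, with the mean and SD. Atp5g1 and the gap sit lower in both knockout groups, and Atp5g3 does not.

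The other 6 pairs did not pass. For Cox8a minus Cox8b the gap was higher in knockout by 0.48 at rest (SE 0.17, exact two-sided permutation p = 0.0221, adjusted 0.0836) and by 0.69 after contraction (SE 0.28, p = 0.0239, adjusted 0.0836). Cox8a itself was at -0.02 (95% interval from -0.44 to 0.39) and 0.12 (from -0.29 to 0.53), and a difference from the response of Cox8b is not shown by this test. Its spread was wide, from 10.79 to 12.37 over the 28 samples. Cox6a1, another non-muscle form, ran from 9.98 to 12.31. The 6 highest samples of Cox8a and of Cox6a1 shared 5, and in each set 4 were among the 6 samples high in lymphocyte markers. The gaps of Cox4i1 to Cox4i2 (-0.38 and -0.32), Cox6a1 to Cox6a2 (-0.09 and 0.09), Cox6b1 to Cox6b2 (-0.11 and -0.18), Cox7a1 to Cox7a2 (0.02 and -0.19) and Atp5g1 to Atp5g2 (-0.03 and 0.02) had adjusted p of 0.188 or more.

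Contraction for 15 min was the treatment, and the question was whether these genes respond within that time and whether LKB1 matters for it. In wild type 0 of 39 members were called (all genes 0%), and 0 had an unadjusted limma p under 0.05, where 1.06% of all genes did. In knockout 0 members were called (all genes 0.0119%, which is 1 gene), and 0 had an unadjusted p under 0.05, where 2.03% of all genes did. For the difference between the responses 0 were called (all genes 0%) and 0 had an unadjusted p under 0.05, where 0.62% of all genes did. The median change of the members was -0.03 in wild type and -0.03 in knockout, with single genes from -0.29 to 0.14 and from -0.21 to 0.24.

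The members with the smallest p were these. In wild type they were Atp5o at -0.29 (SE 0.15), Atp5j at -0.18, Cox5a at -0.08, Atp5pb at -0.19 and Cox7a2 at -0.15. In knockout they were Cox6b2 at 0.11, Cox7a1 at -0.11, Atp5pb at -0.21, Atp5g1 at -0.07 and Atp5c1 at 0.13. For the difference of the responses they were Cox5a at 0.13, Cox7a1 at -0.11, Uqcr11 at 0.07, Uqcrc1 at -0.14 and Atp5o at 0.17. In each of the 3 comparisons every limma adjusted p rounded to 1.00. The knockout samples of equal number deviated together, so a fit with the number as a block was run there, and it called 57 genes (0.679%) in place of 1, again with 0 members and 0 members with an unadjusted p under 0.05. In wild type, where 5 of 7 pairs deviated together, the same fit called 1 gene (0.0119%) and 0 members. There 2 members had an unadjusted p under 0.05, Atp5o at -0.29 (SE 0.12) and Atp5j at -0.18 (SE 0.08), where 3.85% of all genes did.

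**Figure D4:**
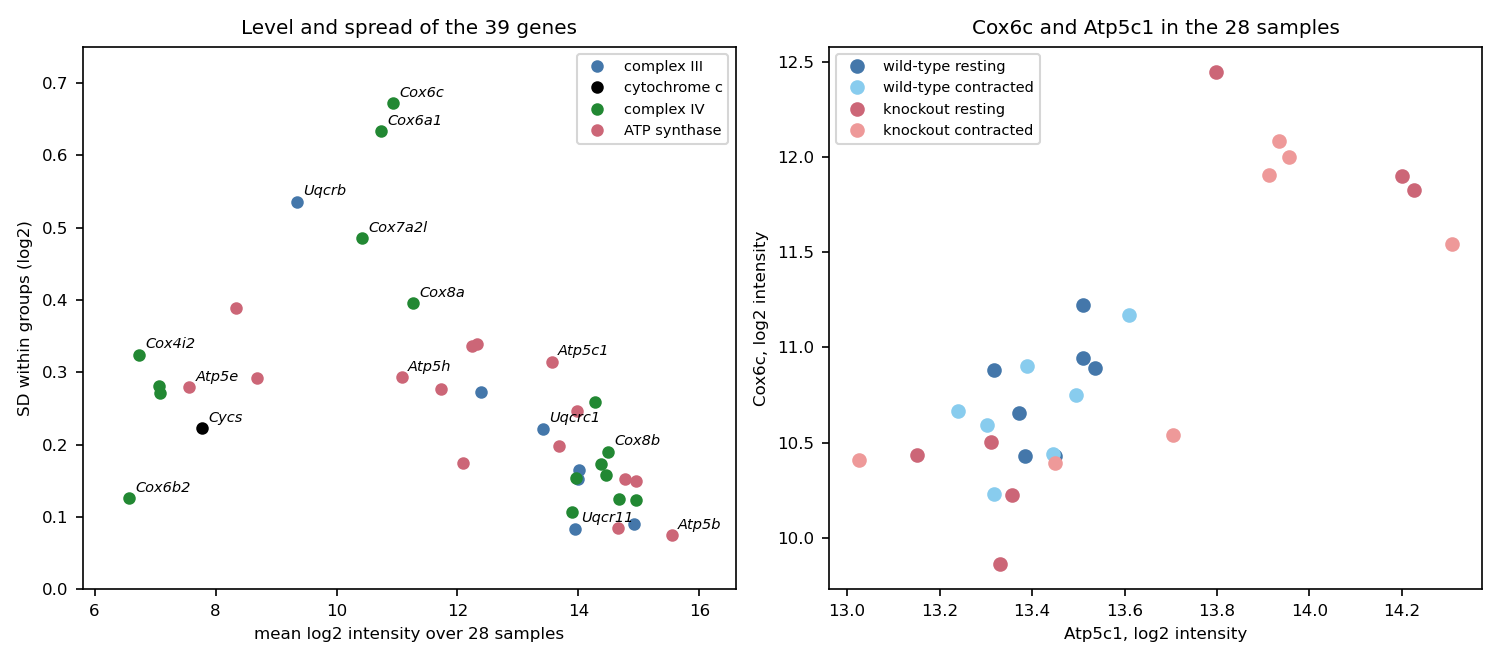
Left, mean log2 intensity over 28 samples (x axis) and SD within groups (y axis, log2) of the 39 genes, coloured by complex, with Cox6c the most variable and Atp5b the least. Right, log2 intensity of Atp5c1 (x axis) and Cox6c (y axis) in the 28 samples, coloured by group, where the 7 points highest in Cox6c are all knockout samples.

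The SD within groups was higher in knockout than in wild type for 27 of 39 members, and most so for Cox6c and Atp5c1. The ratio of the SDs was not computed over all genes. A wider spread in knockout is therefore not shown to be particular to these members. Cox6c, a subunit of complex IV with a single form, ran from 10.43 to 11.22 (median 10.88) in resting wild type and from 9.86 to 12.45 (median 10.50) in resting knockout, and from 10.23 to 11.17 (median 10.66) and from 10.39 to 12.09 (median 11.54) after contraction. Atp5c1, the gamma subunit that turns inside the F1 head, ran from 13.32 to 13.54 (median 13.45) and from 13.15 to 14.23 (median 13.36) at rest, and from 13.24 to 13.61 (median 13.39) and from 13.02 to 14.31 (median 13.91) after contraction. The SD within groups of Cox6c was 0.30 in wild type and 0.90 in knockout, and that of Atp5c1 was 0.11 and 0.43. These were the 2 members of 39 whose knockout SD was over 3 times that of wild type, with ratios of 3.02 and 4.01. Atp5j2 was at 2.27, and the median ratio over the members was 1.09.

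The same knockout samples were high in both. Cox6c lay above all 14 wild-type samples in resting knockout samples 1, 2 and 5 and in contracted knockout samples 1, 2, 3 and 5, at 11.54 to 12.45. The other 7 knockout samples lay between 9.86 and 10.54. Atp5c1 lay above all wild-type samples in resting knockout samples 1, 2 and 5 and in contracted knockout samples 1, 2, 3, 4 and 5. The difference in means was 0.25 at rest and 0.59 after contraction for Cox6c (SE 0.34) and 0.18 and 0.36 for Atp5c1 (SE 0.16, 95% interval from 0.02 to 0.69 after contraction), none of them called at an adjusted p under 0.05. The difference in spread was noticed in these samples and was not tested.

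Over all members the SD within groups was 0.223 at the median, against 0.252 over all genes. It was lowest for Atp5b (0.07), Uqcr11 (0.08), Atp5g1 (0.08) and Uqcr10 (0.09) and highest for Cox6c (0.67), Cox6a1 (0.63), Uqcrb (0.54) and Cox7a2l (0.49). Many of these genes were read near the top of the arrays: 7 had a median rank within the first 50 of 25697 probes. Atp5b was at 47768 on average with a median rank of 2, where the highest value of any probe was 50215. In these normalized values equal ranks held equal intensities across samples, such as 13751.7 at rank 126. Atp5b kept ranks 1 to 8, at 42995 to 50215, so its small spread and small differences are bounded by its place at the top. On the 7 resting wild-type arrays with un-normalized values, Atp5b stood at 69.4% to 100% of the brightest probe. Whether the scanner limits such probes was not tested. The other 2 of the 3 brightest members were Atp5g3 and Cox6a2, at 31859 and 31797. At the dim end Cox4i2, Cox6b2 and Cox7b were detected on 4, 2 and 5 of those 7 arrays, and the other 36 members on all 7.

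The mean deviation of the 39 genes from resting wild type gives 1 value a sample. It ran from -0.23 to 0.14 in resting wild type, from -0.16 to 0.15 in contracted wild type, from -0.25 to 0.07 in resting knockout and from -0.31 to -0.09 in contracted knockout. The groups overlapped in both states.

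Markers of fibre types and of other cells were read beside these results. The mean log2 level of the slow-fibre genes ran from 11.99 to 12.51 and from 10.03 to 12.56 at rest, and from 10.14 to 12.65 and from 10.99 to 12.75 after contraction, wild type before knockout. Their summed intensity ran from 145845 to 204437, from 24144 to 195280, from 34555 to 208801 and from 61099 to 209249 in the same order. Of the 10, 0 were called in either state, with median differences of -0.54 at rest and 0.07 after contraction, and 0 of 9 fast-fibre genes were called. When the 3 samples with few slow-fibre transcripts were left out, 3 members were called at rest, Uqcr11, Cox8b and Atp5h (2.78% of all genes), and 7 after contraction, all of the 8 but Atp5e (6.1% of all genes). With the slow-fibre level in the fit as a covariate, 6 and 8 were called (2.69% and 9.67% of all genes).

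**Figure D5:**
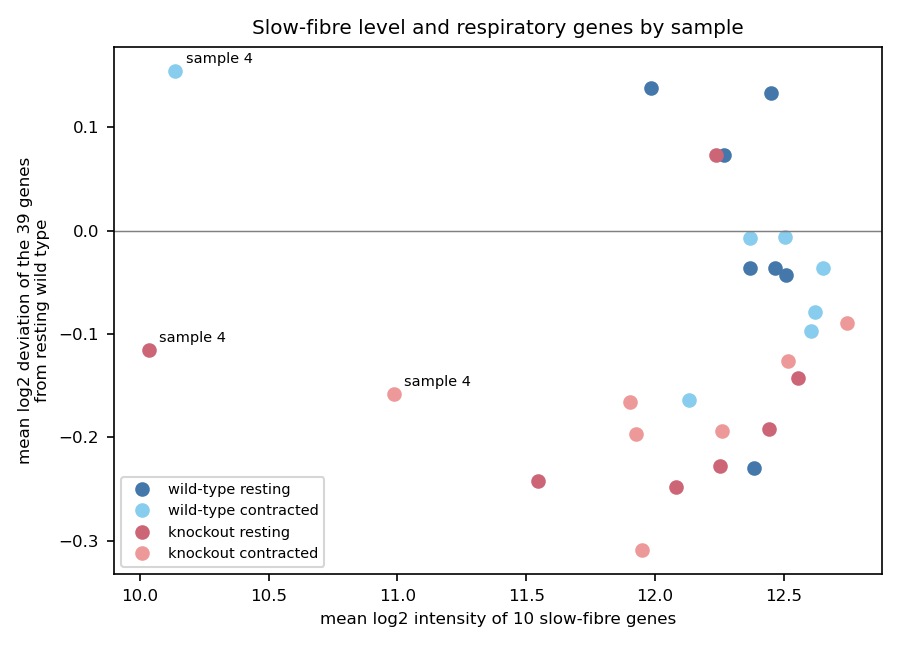
Mean log2 intensity of 10 slow-fibre genes (x axis) and mean log2 deviation of the 39 respiratory genes from resting wild type (y axis) in the 28 samples, coloured by group. The 3 samples low in slow-fibre genes are named, and the 7 contracted knockout samples lie between -0.31 and -0.09 on the y axis.

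Of 7 lymphocyte markers 4 were kept, with Cd8a and Ms4a1 never over the limit, and 0 were called. The summed intensity of the 6 lymphocyte markers with a probe ran from 13 to 2285 in resting and from 6 to 4141 in contracted wild type. In knockout it ran from 4 to 2982 at rest and from 9 to 2583 after contraction. Without the 6 samples high in lymphocyte markers, 2 members were called at rest, Uqcr11 and Uqcrc1 (2.06% of all genes), and 6 after contraction (8.65% of all genes). There Cox8b was at -0.42 at rest (limma adjusted p = 0.0749), Atp5h at -0.64 (adjusted p = 0.0710) and Atp5g1 at -0.17 (adjusted p = 0.192). That fit kept resting knockout sample 1 and contracted knockout samples 1 and 2, whose lymphocyte levels lay just under the limit. Of the 6 macrophage markers kept from a list of 10, 1 was called higher in resting and 2 in contracted knockout, with median differences of 0.47 and 0.54. The summed intensity of the 7 macrophage markers with a probe ran from 1208 to 2224 in resting wild type and from 1773 to 4060 in resting knockout. After contraction it ran from 1130 to 2559 and from 2118 to 5234. Of the fibroblast markers 0 were called higher at rest and 1 after contraction, with medians of 0.26 and 0.41. The part of these cells in the results was not tested.

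Genes that assemble or steer these complexes were read from lists. Their values are knockout minus wild type, at rest or within contracted muscle, and are not changes with contraction. Of 36 assembly and regulation genes 24 were measured, with medians of -0.03 at rest and -0.05 after contraction. At rest 1 was called lower and 0 higher, where 3.75% of all genes were called. After contraction 2 were called lower and 1 higher, where 8.87% of all genes were called. Counts this small are not read as a result about the list. Bcs1l, which inserts the Rieske protein into complex III, fell by 0.50 at rest (limma adjusted p = 0.0418) and by 0.57 after contraction (adjusted p = 0.0124), and was the 1 gene of the list called at rest. Tmem70, an assembly factor of ATP synthase, was at -0.57 at rest (limma adjusted p = 0.0856). In contracted muscle it was lower in knockout by 0.73 (adjusted p = 0.0168). Cox19, a copper-related factor of complex IV, was at 0.22 at rest (limma adjusted p = 0.192). In contracted muscle it was higher in knockout by 0.40 (adjusted p = 0.0130). Cox10, an enzyme of haem a synthesis, was at -0.46 and -0.40 (adjusted p = 0.0643 and 0.0717).

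Of 16 regulators of mitochondrial genes 12 were measured, and 2 were lower in knockout in each state, Esrra in both. Of all genes 1.93% were called lower at rest and 4.33% in contracted muscle. The values are again knockout minus wild type within a state. Ppargc1a, a coactivator of mitochondrial biogenesis, fell by 0.70 at rest (limma adjusted p = 0.0263) and was at -0.28 after contraction (adjusted p = 0.328). Esrra, the nuclear receptor ERR alpha, was lower in knockout by 0.40 at rest and by 0.43 in contracted muscle (limma adjusted p = 0.0487 and 0.0207). Polrmt, the mitochondrial RNA polymerase, was at -0.40 at rest (adjusted p = 0.139). In contracted muscle it was lower in knockout by 0.49 (adjusted p = 0.0494). Gabpa was at 0.20 and 0.18 and was not called. Of 3 measured complex II subunits 0 were called, with medians of -0.19 and -0.22. Of 7 measured carriers and outer membrane genes 1 fell in each state, Ckmt2, the creatine kinase of muscle mitochondria, by 0.41 and 0.39 (adjusted p = 0.0398 and 0.0287).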

How the data were processed

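Whole-muscle RNA of 28 samples was amplified, labelled with biotin and read on Illumina bead arrays, per the labels' protocols. The values deposited by the authors are normalized probe intensities on a linear scale, from -36.1 to 50215 with 27.2% below 0. The submitters' processing notes list the tools R 3.1.2, lumi 3.0 and limma 3.1, with no role. A second deposited table gives un-normalized intensity values beside detection p-values, per the file headers. Only its 7 resting wild-type columns could be matched to samples by label, with array means from 201 to 446, and 21 columns were not used. There, a detection p-value of 0.05 went with a median normalized intensity of 23.7.

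The intensities were corrected with normexp at an offset of 50, which shrinks differences of dim probes, and set on the log2 scale. Probes over 24 in at least 7 samples were kept, 11723 of 25697. A mean for each group was fitted by lmFit and eBayes of limma 3.58.1, under R 4.3.3 and over the 28 arrays together, with Benjamini-Hochberg adjustment over 8389 genes in a comparison. Isoform pairs were compared with an exact permutation test. Pandas 2.3.3 and matplotlib 3.10.9 were used for motifs and plots, with jsonlite 2.0.0 for the labels and statmod 1.5.0 for the block. The number of arrays limits the precision.

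Equal numbers of resting and contracted knockout samples deviated together in 7 of 7 pairs, with correlations across genes from 0.37 to 0.85. In wild type 5 of 7 pairs were over 0.1. Members named with full values are those called in any comparison, the 5 with the smallest p in each, the 3 brightest, the 3 dimmest and the isoform pairs, and up to 4 genes of each pathway list. Cox6c and the samples high in it were chosen after their values were seen. The members, gene lists and pairs were chosen with earlier results of these data known.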

Additional observations from a re-analysis of the deposited data

Results flagged for a closer look

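In 156 sets of 7 samples, 1 for each member and group, 10 held a highest or lowest sample set apart from the other 6 by more than Dixon's 95% critical value. Chance gives about 1 in 20 such sets. Contracted knockout sample 7 gave 5 of the 10. It was low in Uqcrc2 (13.65, the others at 13.95 to 14.12), Cox5a (13.59, the others at 13.85 to 14.00) and Atp5g3 (14.66, the others at 14.96 to 15.13). It was high in Cox6b2 (6.86, the others at 6.39 to 6.59) and Cox8b (14.61, the others at 14.04 to 14.19). Without it, 11 members were called after contraction: the 8 of the report with Cycs, Cox4i1 and Atp5c1, the last of these higher. In that fit 20.3% of all genes were called, against 8.87% with it.

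Resting wild-type sample 2 was low in Uqcrc2 (13.76, the others at 13.97 to 14.09) and high in Uqcr10 (15.13, the others at 14.97 to 15.02). Contracted wild-type sample 5 was low in Cox4i1 (14.16, the others at 14.40 to 14.55). Resting knockout sample 5 was high in Cox5a (14.00, the others at 13.73 to 13.83). Contracted wild-type sample 4, which was also low in slow-fibre genes, was high in Atp5l (13.14, the others at 11.89 to 12.32).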

How the results depend on the processing

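The count of 5 members called at rest became 3 with values floored at 16 in place of normexp (3.11% of all genes), 2 with only the 2 groups in the fit (2.69%), 3 when the 3 samples with low slow-fibre levels were left out, 2 without the samples high in lymphocyte markers and 2 to 7 with 1 array left out. With the sample number as a replicate block across genotypes, the count was 9 at rest and 9 after contraction (9.11% and 15.4% of all genes). Across genotypes, deviations of equal numbers had a mean correlation of 0.17 at rest, against -0.03 for unequal numbers. After contraction these means were 0.001 and 0.003. The count of 8 after contraction became 13 with array weights, 12 lower and 1 higher, where 31.2% of all genes were called, and 6 to 11 with 1 array left out. In the contraction comparisons it was 0 in every setting run. The settings that leave out samples by marker level were chosen after seeing the data. Among single genes, Atp5pb under contraction in wild type turned to 0.0199 without the lymphocyte-high samples, and Atp5o in the difference of responses to -0.0425 with array weights. Flooring at 16 turned the gaps of Cox6b1 to Cox6b2 (0.0506 at rest, 0.0853 after contraction) and Cox7a1 to Cox7a2 (0.0367 after contraction). With 1 sample left out, the gap of Cox6a1 to Cox6a2 ran from -0.24 to 0.0693 at rest and from -0.17 to 0.25 after contraction, Cox7a1 to Cox7a2 from -0.11 to 0.12 at rest, and Atp5g1 to Atp5g2 from -0.0784 to 0.0549 and from -0.0388 to 0.13. The gap of Cox8a to Cox8b ran from 0.41 to 0.56 and from 0.50 to 0.83, and passed in 1 and 2 of these fits. That of Cox6b1 to Cox6b2 after contraction ran from -0.24 to -0.13 and passed in 1. The causes were not tested. Normalization between arrays would hide a shift of most genes, and for Cox4i2, Cox6b2 and Cox7b signal near background limits what can be seen.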
